A study of Mus musculus with 24 samples.

Results

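The Notch receptors, ligands and targets were followed here in the RNA-seq of class IV mouse oocytes grown in follicle-free culture. They were chosen by name from the deposited expression table as 9 of its 16572 genes. The receptors are Notch1 and Notch2, the ligands are Jag1, Jag2 and Dll1, the DNA-binding factor is Rbpj, and the target genes are Hes1, Hey1 and Nrarp. Each of the 9 names had 1 row. RNA-seq of the study covers class IV oocytes, the largest size class, in 2 culture conditions with 2 libraries each. IV 5% O2 oocytes were grown for 9 days in 5% oxygen and IV 20% O2 oocytes for 14 days in 20% oxygen. The ovaries of 7-day-old mice, labelled C57BL/6 Barb, were dissociated and plated on gelatine, and oocytes of 60 to 70 μm were collected according to the labels. The methods describe a cross with SV129 mice, give the IV 20% O2 oocytes a lower range of diameters than the IV 5% O2 oocytes, and state that medium was changed more often in 5% oxygen. Oxygen, culture time, medium changes, oocyte diameter as the methods give it and the libraries themselves therefore cannot be told apart. Theca-like cells supported the cultures at first and few granulosa cells stayed attached to the oocytes, and each library was made from pooled oocytes as a strand-specific library of total RNA after removal of ribosomal RNA. Whether the 2 libraries of a condition came from separate cultures is not stated.

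Notch signalling passes between cells that touch. A ligand of the Jagged or Delta-like family on the surface of a sending cell binds a Notch receptor on its neighbour, the receptor is then cleaved by a metalloprotease and by γ-secretase, and its freed intracellular part joins the DNA-binding protein RBPJ to switch on target genes. In the growing follicle, oocytes are a known source of Jagged1, while Notch2 is the receptor best known from the surrounding granulosa cells. HES and HEY proteins are repressors of the basic helix-loop-helix class, and NRARP feeds back on the receptor complex.

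Values are given as RPM, read counts scaled to a common depth, and, where genes are compared with each other, as RPM per kb of annotated exon. Each condition is a single deposited column that pools its 2 libraries, so no value has an SD, no difference has a test, and counting intervals at 95% compare these libraries rather than the conditions. The depth implied by the value of 1 read was 132185259 reads for IV 5% O2 and 40875359 for IV 20% O2, and the limit for a gene without reads is 3 reads, which is 0.0227 and 0.0734 RPM. Log2 differences are of log2(RPM + 1), the IV 20% O2 value subtracted from the IV 5% O2 value. The added 1 makes changes of low genes look smaller. Over the 14704 genes whose mean reached 1 RPM, their median was 0.26. Differences are therefore also given relative to that median. Of the 14 oocyte markers, all 14 were in the table and had reads in both columns, with sums of 10038 and 13938 RPM in IV 5% O2 and IV 20% O2. Gdf9 stood at 2346 and 2805 RPM and Zp2 at 1537 and 3807 RPM in the same order. Of the 14, 5 had a log2 difference above 0, beside 62.6% of all genes tested. In IV 5% O2, 0 were at least 2-fold higher and 4 at least 2-fold lower, beside 18.7% and 9.22% of all genes tested. In bulk RNA, fewer cells of a type and less RNA per cell cannot be told apart.

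The promoters of the 2 main ligands, of Rbpj and of Nrarp are shown because these genes carry the ligand, nuclear and feedback steps of the comparison. RefSeq windows on GRCm38.p6, from 250 bases before to 50 bases after a start site, were at hand for 7 of the 9 members, and Rbpj and Dll1 had 2 each. Hes1 and Hey1 had no entry. The 250 bases before the start are printed 5′ to 3′ on the strand of the gene, and capitals mark matches on either strand. The Rbpj window is at chr5:53590096-53590345 on the plus strand, with the core RBPJ motif TGGGAA or its complement in capitals. The Jag1 window is at chr2:137116521-137116770 on the minus strand and the Jag2 window at chr12:112929496-112929745 on the minus strand, both with the hypoxia-type core GCGTG in capitals. The Nrarp window is at chr2:25180508-25180757 on the plus strand, with the HES and HEY type boxes CACGTG and CACNAG in capitals.
Rbpj: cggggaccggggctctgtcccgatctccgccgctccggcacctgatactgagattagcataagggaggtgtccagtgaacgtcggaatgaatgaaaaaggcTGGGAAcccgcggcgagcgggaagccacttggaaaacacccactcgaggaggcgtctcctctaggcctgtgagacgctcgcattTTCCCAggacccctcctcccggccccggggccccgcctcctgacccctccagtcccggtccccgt
Jag1: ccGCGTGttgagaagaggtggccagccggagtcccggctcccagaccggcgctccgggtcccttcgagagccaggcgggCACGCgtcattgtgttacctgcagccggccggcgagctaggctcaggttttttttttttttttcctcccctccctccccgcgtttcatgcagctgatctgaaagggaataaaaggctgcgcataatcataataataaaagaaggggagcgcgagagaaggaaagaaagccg
Jag2: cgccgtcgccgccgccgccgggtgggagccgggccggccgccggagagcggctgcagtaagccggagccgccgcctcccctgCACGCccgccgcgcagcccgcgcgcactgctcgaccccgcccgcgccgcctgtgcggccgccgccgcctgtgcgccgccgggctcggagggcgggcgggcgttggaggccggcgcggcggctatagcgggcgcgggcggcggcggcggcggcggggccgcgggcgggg
Nrarp: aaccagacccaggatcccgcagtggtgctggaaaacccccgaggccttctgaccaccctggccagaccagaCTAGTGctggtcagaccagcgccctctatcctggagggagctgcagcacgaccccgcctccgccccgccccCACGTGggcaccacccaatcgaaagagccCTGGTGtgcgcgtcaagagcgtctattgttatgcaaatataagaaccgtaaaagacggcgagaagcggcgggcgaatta

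The windows were searched on both strands for motifs known from Notch, HES and hypoxia signalling. TGGGAA was found in 25.6% of 32851 promoter windows and in 2 of the 9 member windows, both of them at Rbpj itself, whose windows overlap and share a match. The matches of the printed Rbpj window began 149 and 65 bases before the start. The longer form GTGGGAA, which contains TGGGAA, was found in 6.38% of all windows and in 0 of the 9. CACNAG was found in 42.5% of all windows and in 4 of the 9, those of Nrarp, Notch1, Notch2 and Dll1. CACGTG, an E-box that contains ACGTG, was found in 7.15% of all windows and in 1 of the 9, that of Nrarp, 108 bases before its start. ACGTG and GCGTG were found in 19.6% and 32.4% of all windows and in 3 and 6 of the 9. The Jag1 window held GCGTG 248 and 171 bases before the start, and the Jag2 window held it 168 bases before the start and again after it. The Jag2 promoter had a GC content of 87.2% and the Jag1 promoter of 57.2%, against a median of 52.4% over all windows. These matches describe the letters only.

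The ligands Jag1 and Jag2 were the most abundant members, and the balance between Jag1 and Jag2 differed between the conditions. Jag1, the Jagged ligand on chromosome 2 of GRCm38 from 137081456 to 137116644, stood at 353 RPM (46676 reads) in IV 5% O2 and at 413 RPM (16881 reads) in IV 20% O2. Jag2, the second Jagged ligand on chromosome 12 from 112907819 to 112929776, stood at 324 RPM (42836 reads) in IV 5% O2 and at 186 RPM (7610 reads) in IV 20% O2. So Jag1 was slightly lower and Jag2 higher in IV 5% O2. For Jag1 the log2 difference was -0.23, with a 95% interval of -0.25 to -0.20. Intervals of differences are those of the log2 ratio of reads, with no pseudocount. Relative to the median gene, Jag1 stood at -0.48. Jag2 differed by 0.80 (interval 0.76 to 0.83) on this scale and by 0.54 from the median gene. Neither reached 2-fold.

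Since both ligands were read in the same column, their ratio does not depend on how the columns were scaled. Per kb of exon, Jag1 exceeded Jag2 by 2.65 times in IV 20% O2 (interval 2.58 to 2.72) and by 1.30 times in IV 5% O2 (interval 1.29 to 1.32). The ratio was thus 2.04 times lower in IV 5% O2 (interval 1.98 to 2.10, normal approximation on the logarithm of the reads). Its size depends on the exon model and its change does not: with the longest transcript in place of the union of exons, the ratio was 2.02 in IV 20% O2 and 0.991 in IV 5% O2 (interval 0.978 to 1.00), so that Jag1 was not above Jag2 in IV 5% O2. Per kb, Jag1 lay above 97.0% of the genes tested in IV 20% O2 and above 96.1% in IV 5% O2, and Jag2 lay above 89.2% and 93.9%.

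Dll1, the Delta-like ligand on chromosome 17 from 15367354 to 15376872, was near the lower end of the table. It stood at 1.85 RPM (245 reads) in IV 5% O2 and at 0.294 RPM (12 reads) in IV 20% O2. Its ratio without a pseudocount was 6.31 (interval 3.55 to 12.4) and its log2(RPM + 1) difference 1.14, or 0.88 relative to the median gene. Dll1 passed the filter, with a mean of 1.07 RPM, through its IV 5% O2 value alone. Per kb it made up 0.408% of the 3 ligands in IV 5% O2 and 0.0712% in IV 20% O2, whereas Jag1 made up 56.3% and 72.6% and Jag2 43.3% and 27.4%. An annotated long non-coding gene on the opposite strand, A930024N18Rik, covers 20.5% of the exonic bases of Dll1. The libraries are strand-specific, but whether counting used the strand is not given in the sources used here, so reads of the pair may be mixed.

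**Figure D1:**
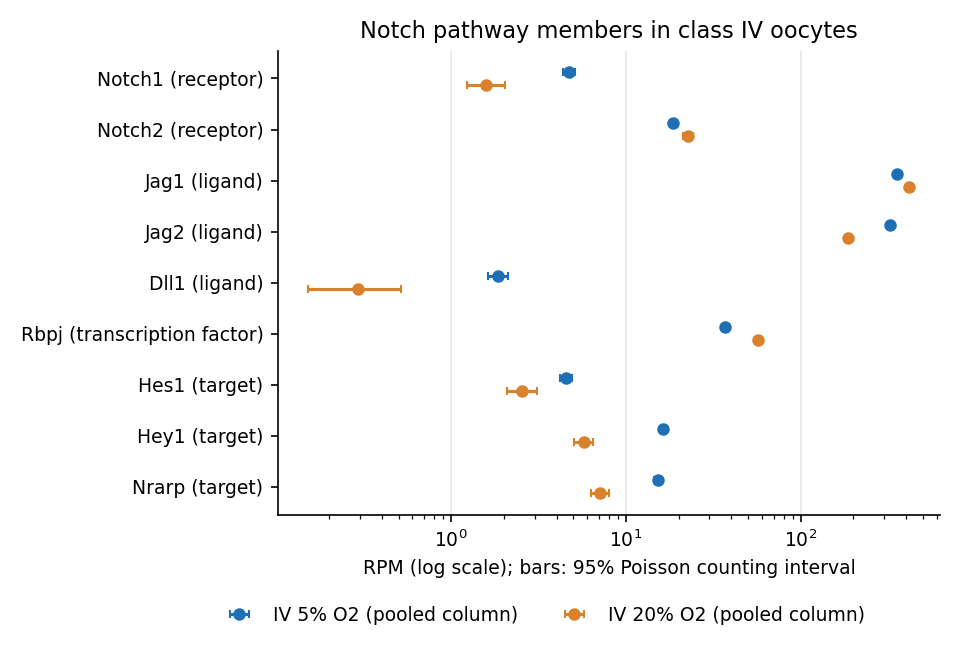
RPM of each member (horizontal axis, log scale) in the pooled IV 5% O2 and IV 20% O2 columns, with the role of each gene in brackets; bars are 95% Poisson counting intervals and do not show the spread between libraries. Jag1 and Jag2 lie between 186 and 413 RPM, and the other members at 56.7 RPM or less.

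The receptors were present at lower levels than Jag1 and Jag2. Notch2, on chromosome 3 from 98013527 to 98150361, stood at 18.6 RPM (2465 reads) in IV 5% O2 and at 22.5 RPM (921 reads) in IV 20% O2. Notch2 thus differed by -0.26 on the log2 scale, with an interval from -0.38 to -0.16, and by -0.52 once the median gene was subtracted. Notch1, on chromosome 2 from 26457903 to 26516663, stood at 4.74 RPM (626 reads) in IV 5% O2 and at 1.59 RPM (65 reads) in IV 20% O2. Notch1 was therefore higher in IV 5% O2 than in IV 20% O2, with a log2 difference of 1.15 and a ratio without a pseudocount of 2.98 (interval 2.30 to 3.91). After subtraction of the median gene its difference was 0.89, under 2-fold.

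Notch2 was the main receptor transcript in both columns. Per kb, it exceeded Notch1 by 18.7 times in IV 20% O2 (interval 14.5 to 24.4) and by 5.20 times in IV 5% O2 (interval 4.76 to 5.68). The share of Notch1 in the pair was 5.07% in IV 20% O2 and 16.1% in IV 5% O2, with a log2 change of the ratio of Notch1 to Notch2 of 1.85 (interval 1.46 to 2.23). The sum of the receptors per kb, by contrast, was close in both columns, at 2.06 per kb for IV 5% O2 and 2.20 per kb for IV 20% O2. The 3 ligands summed to 108 and 97.7 RPM per kb, which is 52.2 and 44.4 times the receptors. Jag1 against Notch2, the pair of ligand and receptor with the highest levels, stood at 35.0 (interval 33.6 to 36.5) in IV 5% O2 and at 33.9 (interval 31.7 to 36.3) in IV 20% O2. The log2 change of this ratio was 0.05 with an interval of -0.07 to 0.16. Jag2 against Notch2 went from 12.8 in IV 20% O2 to 26.9 in IV 5% O2, a change of 2.10 times (interval 1.94 to 2.28). On the opposite strand, 0610009E02Rik covers 1068 and Gm13568 covers 414 of the 14232 exonic bases of Notch1. Gm42820, on the same strand, covers 5.02% of those of Notch2.

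**Figure D2:**
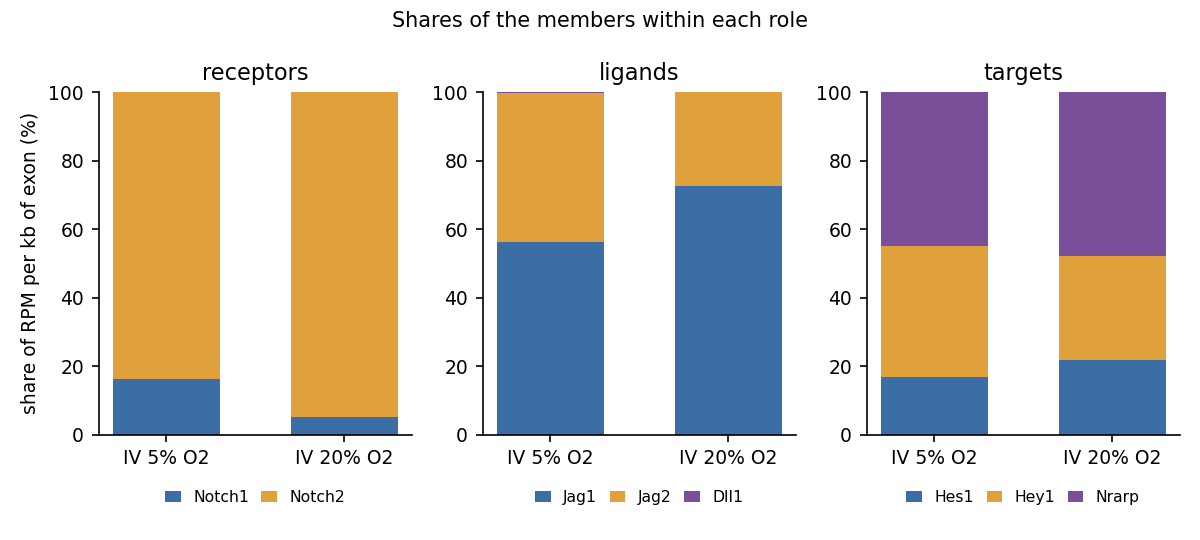
Share of each member in the summed RPM per kb of exon of its role (vertical axis, percent) in the IV 5% O2 and IV 20% O2 columns, for receptors, ligands and targets. Notch2 fills 83.9% and 94.9% of the receptor bars, and Jag1 56.3% and 72.6% of the ligand bars.

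Rbpj, which encodes the DNA-binding partner of the cleaved receptor, was the member with the lowest difference. It lies on chromosome 5 from 53466152 to 53657362 and stood at 36.7 RPM (4853 reads) in IV 5% O2 and at 56.7 RPM (2316 reads) in IV 20% O2. Its level in IV 5% O2 was thus 0.648 of that in IV 20% O2 (interval 0.617 to 0.681). The log2 difference was -0.61, or -0.87 relative to the median gene, and 16.1% of the genes tested had a lower difference.

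All 3 targets had higher values in IV 5% O2. Hey1, on chromosome 3 from 8663359 to 8667256, stood at 16.4 RPM (2164 reads) in IV 5% O2 and at 5.72 RPM (234 reads) in IV 20% O2. Its log2(RPM + 1) difference of 1.37 was the largest among the members, and 90.2% of the genes tested had a lower difference. The ratio of Hey1 without a pseudocount was 2.86 (interval 2.50 to 3.29), under those of Dll1 (6.31) and Notch1 (2.98). Nrarp, on chromosome 2 from 25180758 to 25183339, stood at 15.2 RPM (2005 reads) in IV 5% O2 and at 7.12 RPM (291 reads) in IV 20% O2. Its log2 difference of 0.99 was just under 2-fold, and its ratio without a pseudocount was 2.13 (interval 1.88 to 2.42). Hes1, on chromosome 16 from 30064384 to 30067796, stood at 4.52 RPM (597 reads) in IV 5% O2 and at 2.54 RPM (104 reads) in IV 20% O2. Its log2 difference was 0.64 and its ratio 1.78 (interval 1.44 to 2.21), the smallest among the targets. With the median gene subtracted, the differences of Hey1, Nrarp and Hes1 were 1.11, 0.74 and 0.38.

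The value of Nrarp is uncertain because the antisense gene Gm38287 covers 79.4% of its exonic bases and was counted as well. Gm38287 stood at 10.8 RPM (1423 reads) in IV 5% O2 and at 5.82 RPM (238 reads) in IV 20% O2, close to the values of Nrarp. Without knowledge of strand in the counting, the reads of the pair cannot be told apart. Hey1, Hes1, Jag1, Jag2 and Rbpj share no exonic base with another annotated gene.

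Against Rbpj within the same column, each target was higher in IV 5% O2. Rbpj itself was lower there, at 0.648 of its IV 20% O2 level, so each change of a ratio to Rbpj includes that difference. Hey1 per kb was at 0.395 of Rbpj in IV 20% O2 and 1.74 times Rbpj in IV 5% O2, a change of 4.41 times (interval 3.82 to 5.09). With the longest transcript as length, the levels were 0.229 and 1.01 (interval 0.959 to 1.06), so that Hey1 and Rbpj were not separated in IV 5% O2, and the change is the same by construction. The ratio of Nrarp to Rbpj changed by 3.29 times (interval 2.88 to 3.75) and that of Hes1 to Rbpj by 2.74 times (interval 2.21 to 3.39). Hes1 was also lower against Hey1 in IV 5% O2, where the ratio of Hes1 to Hey1 was 0.442 against 0.712 in IV 20% O2, with a log2 change of -0.69 (interval -1.05 to -0.33). The 3 targets summed to 13.1 RPM per kb in IV 5% O2 and to 5.76 RPM per kb in IV 20% O2.

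**Figure D3:**
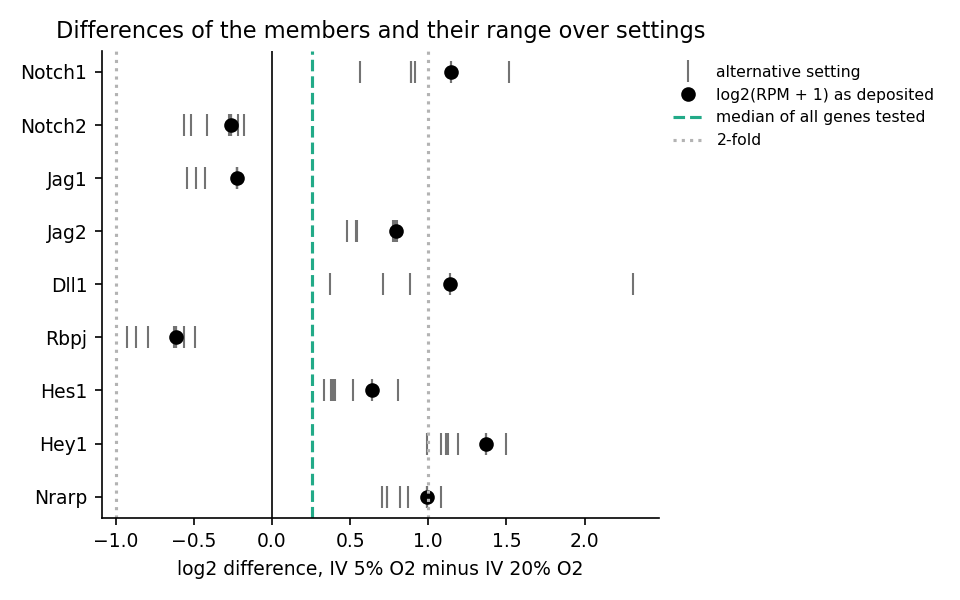
Log2 difference of each member (horizontal axis, IV 5% O2 minus IV 20% O2) as deposited (black points) and under the alternative scalings, pseudocounts and filters (grey marks); the dashed line is the median of all genes tested and the dotted lines are 2-fold. Every mark lies on the same side of 0 as its black point, and Dll1 has the widest spread, from 0.37 to 2.31.

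Per kb, the order of levels in IV 20% O2 was Jag1 (70.9 RPM per kb), Jag2 (26.7), Rbpj (4.44), Nrarp (2.76), Notch2 (2.09), Hey1 (1.75), Hes1 (1.25), Notch1 (0.112) and Dll1 (0.0696). The counting intervals of Notch2 and Hey1, and of Notch1 and Dll1, overlapped. In IV 5% O2 the order was Jag1 (60.6 RPM per kb), Jag2 (46.5), Nrarp (5.87), Hey1 (5.01), Rbpj (2.88), Hes1 (2.22), Notch2 (1.73), Dll1 (0.439) and Notch1 (0.333), and no neighbours had overlapping intervals. Hence Nrarp and Hey1 stood above Rbpj in IV 5% O2 and below it in IV 20% O2. With the longest transcript as length, Rbpj stood between Hey1 and Nrarp in IV 5% O2, at 6.69 RPM per kb against 6.76 and 5.87.

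Of the 9 members, 3 (Notch1, Dll1 and Hey1) were at least 2-fold higher in IV 5% O2, beside 18.7% of all genes tested, and 0 were at least 2-fold lower, beside 9.22%. Their median log2 difference was 0.80 against 0.26 for all genes tested, and 6 of the 9 lay above that median. A difference above 0 was found for 62.6% of all genes tested, the share against which counts of higher values are to be read. These are 9 genes from a pair of columns, and no test was run on them. Among the 3 at least 2-fold higher, Dll1 passed the filter through IV 5% O2 alone. Of the 3, Hey1 alone stayed at least 2-fold higher relative to the median gene and with quantile normalization. With median-ratio scaling Hey1 stayed so and Notch1 did not, while Dll1 fell under the filter, with 8 members tested. The share of higher genes among all genes 2-fold apart was 67.0%, against 47.4% relative to the median gene, 48.6% with quantile normalization and 45.6% with median-ratio scaling.

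Of 72 other genes listed for the pathway, 61 were in the table and 58 were tested; 11 (19.0%) were at least 2-fold higher in IV 5% O2 and 6 (10.3%) at least 2-fold lower, beside 18.7% and 9.22% of all genes tested. Of the 11, Dll4, Maml3 and Gata3 passed the filter through IV 5% O2 alone, where they were high, and of the 6, Dll3 passed through IV 20% O2 alone. Relative to the median gene, 5 were at least 2-fold higher (Dll4, Maml3, Snw1, Dtx1 and Gata3) and 10 at least 2-fold lower, beside 11.9% and 13.2% of all genes tested on that scale. Of the 58, 29 had a log2 difference above 0, fewer in proportion than the 62.6% of all genes tested, and their median relative to the median gene was -0.26. Notch3 and Notch4 were listed but not among the names in the table, and so are not analysed here. Where a pair of values follows a gene, IV 5% O2 comes first.

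Among the other ligands, the Delta-like genes went in both directions at low levels. Dll4 stood at 1.93 RPM (255 reads) in IV 5% O2 and at 0.147 RPM (6 reads) in IV 20% O2, a ratio of 13.1 (interval of the log2 ratio 2.57 to 5.18). Dner, a non-canonical ligand, stood at 5.39 and 13.8 RPM, which gives a log2 difference of -1.22. Dll3, named after its values were seen, stood at 0.401 and 2.30 RPM. Dlk1 and Dlk2, non-canonical Delta-like genes, had a mean under 1 RPM and were not tested. Dlk1 stood at 1.69 and 0.0734 RPM (223 and 3 reads), a ratio of 23.0 (interval 7.76 to 112), and Dlk2 at 1.34 and 0.0979 RPM (177 and 4 reads), a ratio of 13.7 (interval 5.25 to 50.8).

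Of 6 ligand endocytosis genes, which let a sending cell pull on the receptor, 3 were at least 2-fold higher in IV 5% O2 and 0 lower, beside 18.7% and 9.22% of all genes tested. Relative to the median gene none of the 3 reached 2-fold, with Mib2 at 0.92, Epn1 at 0.83 and Dnm2 at 0.80. Of the 6, 5 had a difference above 0, beside 62.6% of all genes tested, and their median was 0.83, or 0.57 relative to the median gene. Mib2, an E3 ligase that ubiquitinates Notch ligands, stood at 37.0 RPM in IV 5% O2 and at 15.8 RPM in IV 20% O2, and the other two were Dnm2 and Epn1, which act in endocytosis. Epn2, an epsin, had the highest level per kb of this list, with 344 and 225 RPM and a log2 difference of 0.61. Mib1, the related ligase named after its values were seen, went the other way, at 54.8 RPM in IV 5% O2 against 77.2 RPM in IV 20% O2.

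The genes listed for receptor proteolysis had 3 of 9 with a difference above 0, beside 62.6% of all genes tested. Of the 9, 0 were at least 2-fold higher and 2 at least 2-fold lower in IV 5% O2, beside 18.7% and 9.22% of all genes tested. Both are subunits of γ-secretase. Ncstn, nicastrin, stood at 32.6 and 82.0 RPM, which gives a log2 difference of -1.30 (interval -1.40 to -1.26). Psenen stood at 24.8 and 57.6 RPM, which gives a log2 difference of -1.18. The median of the list was -0.46, or -0.72 relative to the median gene. Of the 4 receptor glycosylation genes in the table, 0 were 2-fold apart, and Mfng, a Fringe enzyme that extends the sugars on Notch, stood at 52.4 and 36.5 RPM.

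Of 7 coactivators, 2 were at least 2-fold higher and 2 at least 2-fold lower, beside 18.7% and 9.22% of all genes tested. Snw1, which binds the Notch transcription complex, stood at 181 RPM in IV 5% O2 and at 67.6 RPM in IV 20% O2. Maml3, a Mastermind-like coactivator, stood at 2.55 and 0.269 RPM, the latter from 11 reads. The lower genes were the acetyltransferase genes Crebbp, with 136 and 349 RPM, and Ep300, with 70.9 and 152 RPM. Of 13 corepressors tested, 1 was at least 2-fold higher, Ctbp2, with 89.7 and 38.9 RPM and a difference of 0.93, under 2-fold, relative to the median gene. Sin3a, the most abundant corepressor per kb, stood at 633 and 545 RPM, which gives a log2 difference of 0.22 that lay at -0.04 relative to the median gene. Rbpjl, an RBPJ-like gene, had 164 reads in IV 5% O2 and none in IV 20% O2. Its level was 16.9-fold higher when set against a floor of 3 reads in IV 20% O2. The counting interval of its ratio began at 13.6. Rbpjl was not tested because its mean was under 1 RPM.

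Dtx1, which encodes a Deltex E3 ligase that acts on Notch and is itself a known target, had the largest log2(RPM + 1) difference of the pathway genes tested. It stood at 19.3 RPM (2546 reads) in IV 5% O2 and at 1.17 RPM (48 reads) in IV 20% O2, a ratio of 16.4 and a log2(RPM + 1) difference of 3.22. Of 10 receptor turnover genes, 2 were at least 2-fold higher, Dtx1 and Dtx3, and 0 lower, beside 18.7% and 9.22% of all genes tested. Dtx3 stood at 0.91, under 2-fold, relative to the median gene. The paralogue Dtx2 was abundant in both columns, with 396 and 377 RPM and a log2 difference of 0.07 that turns negative relative to the median gene, at -0.19. Of 7 other targets, 3 (Hes6, Dtx1 and Gata3) were at least 2-fold higher and 0 lower, beside 18.7% and 9.22% of all genes tested. Gata3 stood at 3.58 and 0.269 RPM. Heyl, a relative of Hey1 at 2.14 and 0.685 RPM, is the middle gene of this list, and Heyl and Gata3 passed the filter through IV 5% O2 alone. Hes6, an inhibitor of HES1, stood at 64.9 RPM in IV 5% O2 and at 30.8 RPM in IV 20% O2, a difference of 0.79, under 2-fold, relative to the median gene. Of the 7, 5 had a higher value in IV 5% O2, a share near the 62.6% of all genes tested, and Hes5 and Ccnd1 had a lower one.

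**Figure D4:**
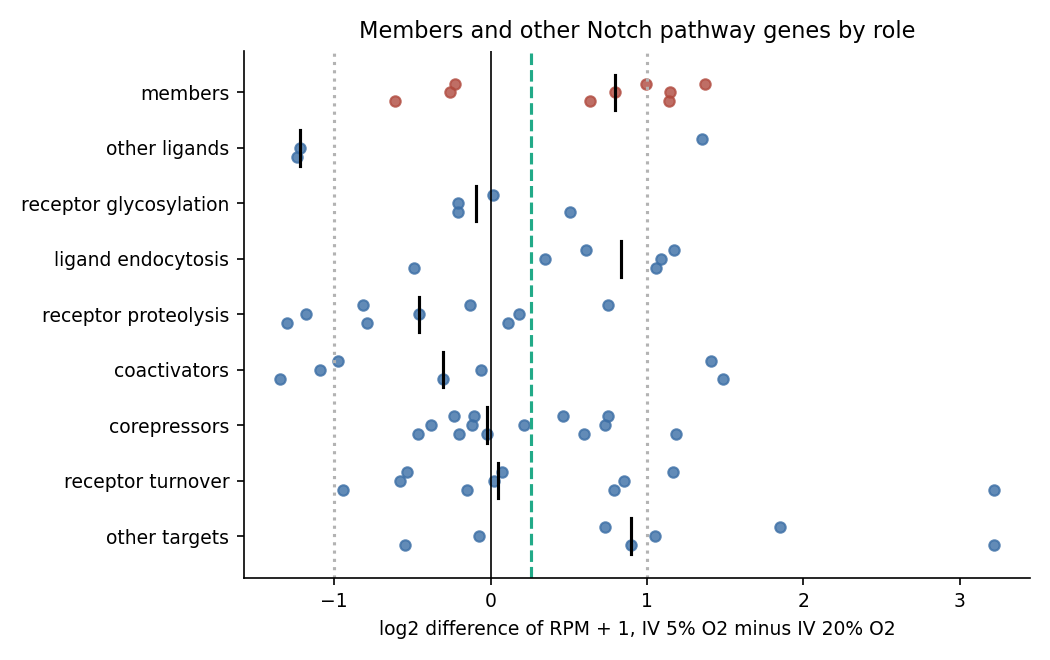
Log2 difference of RPM + 1 (horizontal axis, IV 5% O2 minus IV 20% O2) of each member (red) and each other Notch pathway gene tested (blue) by role, with the median of each row in black; the dashed line is the median of all genes tested and the dotted lines are 2-fold. Ligand endocytosis genes and other targets have medians of 0.83 and 0.90 and receptor proteolysis genes of -0.46, where the middle gene of the other targets is Heyl; Dtx1, at 3.22, stands in 2 rows.

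Markers of other ovarian cells had reads in both columns, apart from those named here, and 10437 of all 16572 genes were higher in IV 5% O2. Of the 11 theca and stroma markers in the table, of 18 listed, 10 were higher in IV 5% O2, with a sum of 46.1 RPM against 7.17 RPM. Cyp11a1 stood at 16.4 and 0.122 RPM and Fn1 at 4.94 and 2.30 RPM, and Col1a2, Dcn and Vim were without reads in IV 20% O2. Of the 7 granulosa markers in the table, of 15 listed, 6 were higher in IV 5% O2, with a sum of 75.6 RPM against 62.0 RPM that came mainly from Gata4 and Nr5a2. Relative to the median gene, 3 of the 5 granulosa markers tested were higher, among them Inhba, which passed the filter through IV 5% O2 alone (2.63 and 0.758 RPM). Fshr was listed without reads in IV 5% O2, as was Inha in IV 20% O2. Of the 5 endothelial markers in the table, of 9 listed, 4 were higher in IV 5% O2, with a sum of 65.2 RPM against 39.3 RPM, mainly from Pecam1 and Tek, and Kdr was without reads in IV 20% O2. Of the 3 macrophage markers in the table, led by Csf1r and Cd68, 2 were higher in IV 5% O2. The sum of the 3 was 17.9 RPM against 21.1 RPM, and Lyz2 lacked reads in IV 20% O2. Of the erythroid markers only Alas2 was in the table, with 1.32 and 1.57 RPM. The part of such cells in the values of the members was not tested.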

How the data were processed

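RNA-seq of class IV oocytes was used; the RRBS and PBAT libraries are not analysed here. The authors trimmed reads with Trim Galore, aligned them to mm10 (GRCm38) with TopHat2 (2.0.9 in the submitters' processing notes), counted them over the merged exons of an oocyte transcript annotation in SeqMonk 1.41 and deposited log2 values, 1 pooled column per condition. The way in which libraries were combined into a column is not given in the sources used here. The deposited log2 values are named as RPKM, but after undoing the log2, 99.93% and 99.98% of the values (IV 5% O2 and IV 20% O2) were within 0.05 of a whole multiple of 1 read, so they were read as RPM without a correction for length. A gene listed at 0.9 of 1 read was set to 0. A further value column, 1 in number, belongs to none of the mapped samples and was not used.

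For 18 names with several rows the row with the highest mean was taken. For genes whose mean reached 1 RPM, differences are those of log2(RPM + 1), and 2-fold was the limit for counts. A limma fit over libraries had been planned and could not be run, since each condition has 1 value; no test was run. Intervals are exact Poisson (levels), Clopper-Pearson (ratios) and, for changes of a ratio, normal on the log scale. They cover counting error only, since each condition has 1 value. Reads carry no molecular identifiers, so copies of a molecule count as separate reads and the intervals can be too narrow. Exonic lengths came from GENCODE vM21, as the union of exons or the longest transcript. Genes were matched by exact coordinates (16383 genes) and otherwise by name (16553 in all). The methods name an oocyte annotation for the counting, so whether the counted exons are those of GENCODE is not known. Levels per kb rest on the GENCODE exons. Promoters are RefSeq windows, matched by symbol. The scripts were tested on simulated reads. Members and lists were chosen with earlier results of these data known. Named were all members, the gene with the highest mean RPM per kb and that with the largest difference of each role list, and the top 2 markers by mean RPM of each marker list; Dll3, Dlk1, Dlk2, Mib1, Dnm2, Epn1, Crebbp, Ep300, Rbpjl, Dtx3, Gata3, Heyl, Hes5, Ccnd1, Inhba and the markers without reads were named after their values were seen. Alternatives were the longest transcript as length, RPM per kb, summed rows, quantile normalization, median-ratio scaling, a filter at 5 RPM or none, and pseudocounts of 5 and 0.1 RPM. Tools were scipy 1.17.1, numpy 2.4.6 and pandas 2.3.3 under Python 3.11.15, with matplotlib 3.10.9 for plots.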

Additional observations from a re-analysis of the deposited data

How the results depend on the processing

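No paired analysis was possible because each deposited column merges its libraries without replicate numbers. For the same reason leaving out a library and the limma fit were not run. Each member kept the sign of its log2 difference under every alternative in which it was tested. Of these values, 53 moved from the main value by no more than the longer arm of the counting interval of the log2 ratio, and 22 moved further. The 3 members at least 2-fold higher became 0 with a pseudocount of 5 RPM, and 1 with the filter at 5 RPM, under quantile normalization, under median-ratio scaling, per kb of exon and relative to the median gene, an alternative chosen after seeing the data. The filter leaves 6 members to test at 5 RPM, 8 under median-ratio scaling (without Dll1) and 7 per kb (without Notch1 and Dll1). In the same settings, the 11 other pathway genes at least 2-fold higher became 4 with a pseudocount of 5 RPM, 7 with the filter at 5 RPM, 4 under median-ratio scaling, 5 under quantile normalization, 6 per kb and 5 relative to the median gene. The 6 at least 2-fold lower became 10 under median-ratio scaling, 9 under quantile normalization, 3 per kb and 10 relative to the median gene. A pseudocount of 0.1 RPM gave 4 members (Nrarp added), 13 other genes higher and 8 lower, and with no filter 14 other genes were higher. Over all genes tested, 2753 were higher and 1356 lower, against 1202 and 706 with a pseudocount of 5 RPM, 1691 and 917 with the filter at 5 RPM, 1700 and 2031 under median-ratio scaling, 1764 and 1866 under quantile normalization and 1609 and 899 per kb. With the longest transcript as length, the receptor shares became 21.9% Notch1 and 78.1% Notch2 in IV 5% O2 and 7.24% Notch1 in IV 20% O2, and the ligand shares 49.6% Jag1 and 50.01% Jag2 in IV 5% O2 and 66.8% Jag1 and 33.1% Jag2 in IV 20% O2. The lower depth of IV 20% O2 limits Dll1 (12 reads), Dll4 (6 reads), Maml3 (11 reads) and Notch1 (65 reads).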
